A study of Mus musculus with 6 samples.

Results

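The genes described here are 57 cell cycle and DNA replication genes, chosen by name from the symbols of the deposited table: cyclins and their kinases, the E2F and RB proteins, the factors that license and fire replication origins, and the kinases, checkpoint proteins and centromere proteins of mitosis. All 57 are in the table, among 20624 genes in all. Gene expression was measured by RNA sequencing after depletion of ribosomal RNA in mDCT15, a line of murine cells of the kidney's distal convoluted tubule, with 3 samples of wild type cells and 3 samples of *Pkd1*-/- cells made by CRISPR/Cas9 editing. Both were grown in DMEM/F12 medium with fetal bovine serum, without further treatment, and the genotype label calls the edited cells a knockdown where their titles give *Pkd1*-/-. Whether the edited line is a single clone is not given in the sources used here. *Pkd1* encodes polycystin-1, the protein most often mutated in autosomal dominant polycystic kidney disease. The study compared these genotypes. The value analysed here is the authors' mean normalized count over all 6 samples, so the values describe how strongly each gene was expressed over both genotypes and give no difference between *Pkd1*-/- and wild type cells.

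The cell cycle is driven by cyclin-dependent kinases, which are active only when bound to a cyclin. In G1, D-type cyclins with Cdk4 or Cdk6 phosphorylate the RB proteins, which releases E2F factors to switch on the genes of DNA replication. In S phase, licensed origins fire and the MCM helicase unwinds the DNA. The Cdk1 kinase with cyclin B then starts mitosis, and its destruction through Cdc20 ends it. Many genes of the replication step carry E2F sites in their promoters, whereas many genes of mitosis carry a cell cycle homology region (CHR) together with CCAAT boxes, which bind the factor NF-Y. In tubule cells of cystic kidneys, proliferation is one of the features of the disease.

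Levels are given as the mean normalized count divided by the length of the gene's exons, in counts/kb, because a longer transcript gives more reads. In bulk RNA, fewer cycling cells and less RNA per cell cannot be told apart. The mean is a single value per gene, so the spread between samples is not part of these values, no test was run, and the order of genes with close levels is not established. For pairs of related genes the range over 3 measures of gene length is given instead, and other levels and ranks are per kb of exon. The means add up to 16746100 over all genes, of which the 57 genes took 0.996%. The lowest mean in the table was 0.618, and the depth of single samples was not analysed here. The study's methods name a minimum count per sample and gene, and how it was applied is not known. Genes with few reads were kept all the same, such as *Krt8* with a mean of 0.980. A gene that is not among the rows may have had as few reads or fewer, but need not be wholly unexpressed. All ranks are among the rows only. The targeted gene *Pkd1* could not be checked by genotype from a mean over both. The markers of the labelled cell type were mostly low or not among the rows. Of 11 markers of the distal convoluted tubule, 6 are in the table, and 3 of these were above the median of all genes per kb of exon. The thiazide-sensitive transporter *Slc12a3*, *Pvalb*, *Calb1*, *Emx1* and *Sall3* are not among the rows. *Wnk1* was at 359, *Wnk4* at 94.5 and *Stk39* at 57.9 counts/kb, while *Trpm6* and *Egf* were at 3.72 and 3.95 counts/kb and *Klhl3* at 0.772 counts/kb. Among 4 epithelial markers, *Epcam* was at 44.6 and *Krt8* at 0.501 counts/kb, and *Cdh1* and *Krt18* are not among the rows. Of the fibroblast markers, *Col1a1* was at 30.5 counts/kb, with *Col1a2* and *Pdgfra* at 0.214 and 0.335 counts/kb. The leukocyte marker *Ptprc* was at 0.286 counts/kb, and of the endothelial markers *Pecam1* was at 0.468 counts/kb and *Cdh5* is not among the rows.

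All 57 genes were expressed above the median of the 20122 genes with a known length, which was 28.6 counts/kb. Their own median was 351 counts/kb, at percentile 91.4 of all genes. The lowest was *Ccnd2* at 43.2 counts/kb, percentile 55.4, and the highest was *Top2a* at 2246 counts/kb, percentile 99.4. Of the 57 genes, 31 were at or above percentile 90 and 44 at or above percentile 75. The table holds many genes with few reads, and these counts depend on them. Among the 13611 genes with a length and a mean of at least 10, whose median was 80.9 counts/kb, 54 of the 57 were above the median, all but *Ccnd1*, *Ccnd2* and *Chek1*, and 23 were at or above percentile 90. With the longest transcript as the length all 57 were again above the median of all genes and 29 at or above percentile 90. With the median coding transcript 53 were above the median, the others being *Ccnd1*, *Cdc25b*, *E2f2* and *Chek1*, and 27 were at or above percentile 90.

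**Figure D1:**
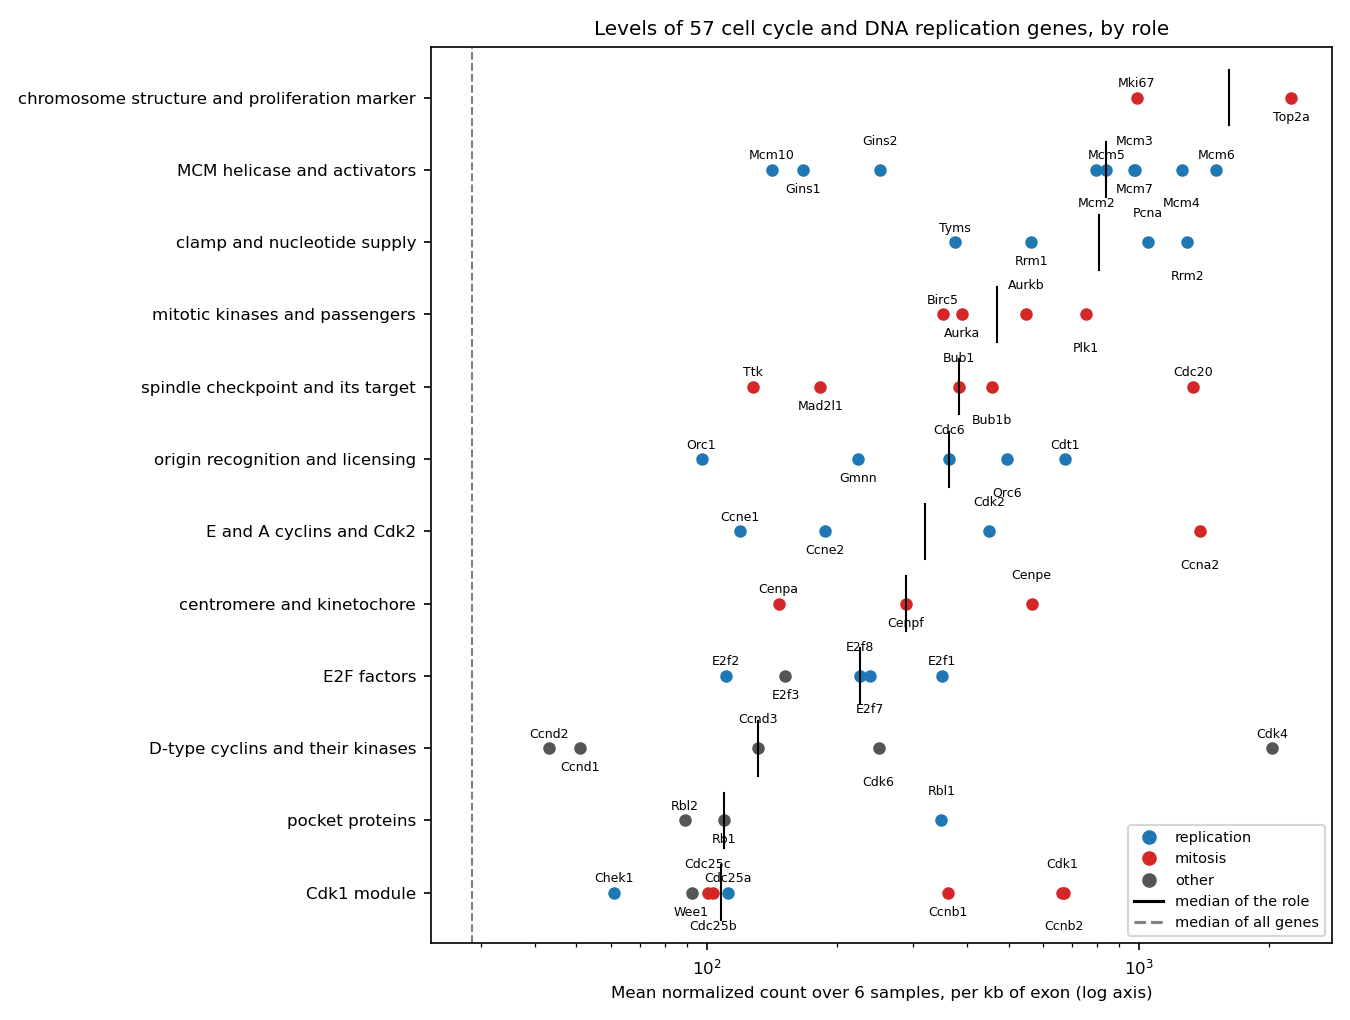
Each point is 1 of the 57 genes, placed by its mean normalized count per kb of exon over 6 samples (log axis) and sorted into 12 roles; colours give the class used for the promoters, the black bars the median of each role and the dashed line the median of all genes, 28.6. All points lie to the right of the dashed line, from *Ccnd2* at 43.2 to *Top2a* at 2246.

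At the entry to the cycle, the kinase *Cdk4* was far more abundant than the D-type cyclins that activate it. *Cdk4* (ENSMUSG00000006728, chromosome 10 from 126895180 to 126903789, plus strand, GRCm39) was at 2028 counts/kb, rank 2 of the 57 genes. The related kinase *Cdk6* was at 249.9 counts/kb. The level of *Cdk4* was 8.12 times that of *Cdk6*, with a range from 1.57 to 10.8 times over the length measures. Among the cyclins, *Ccnd3* (chromosome 17 from 47815767 to 47910624, plus strand) was highest at 131.5 counts/kb. *Ccnd1* (chromosome 7 from 144483668 to 144493662, minus strand) was at 50.9 counts/kb and *Ccnd2* (chromosome 6 from 127102125 to 127129156, minus strand) at 43.2 counts/kb. On this scale these were the lowest of all 57 genes. *Ccnd3* was above both under each length measure, by 2.59 to 9.59 times for *Ccnd1* and by 1.55 to 4.91 times for *Ccnd2*. The order of *Ccnd1* and *Ccnd2* changed with the length, with *Ccnd2* at 0.850 to 6.20 times *Ccnd1*. *Cdk4* exceeded *Ccnd1* by 39.9 to 86.7 times.

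The pocket proteins bind E2F factors and hold their target genes down until they are phosphorylated. *Rbl1*, which encodes p107, was the most abundant at 349 counts/kb, at percentile 91.3. *Rb1*, the retinoblastoma gene, was at 109.8 counts/kb and *Rbl2*, which encodes p130, at 89.2 counts/kb. The level of *Rbl1* was 1.98 to 3.18 times that of *Rb1* and 2.47 to 3.91 times that of *Rbl2* over the length measures. *Rb1* was 1.23 to 1.34 times *Rbl2*.

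Of the E2F factors, the activator *E2f1* was highest per kb of exon at 350.04 counts/kb, 3.11 to 3.95 times *E2f2* and 2.19 to 2.64 times *E2f3*. The activators *E2f2* and *E2f3* were at 110.6 and 152 counts/kb. The atypical repressors *E2f7* and *E2f8*, which bind without a partner protein, were at 239 and 226 counts/kb. *E2f7* was at 1.06 to 1.47 times *E2f8*, and both lay between the activators per kb of exon. With the other lengths *E2f7* was above *E2f1*, at 386 against 355 counts/kb for the longest transcript and 513.5 against 451 for the median coding transcript. From the further genes of the pathway, the repressor *E2f4* was at 159 counts/kb (0.455 to 1.02 times *E2f1* over the lengths), *E2f5* at 86.7 and *E2f6* at 26.2 counts/kb, which was below the median of all genes per kb of exon. *Tfdp1*, the common partner of E2F proteins, was at 592 counts/kb, above each of the E2F genes.

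Cyclin E with Cdk2 starts S phase and cyclin A carries it on. *Ccna2*, for cyclin A2, was at 1383 counts/kb, rank 4 of the 57 genes, and *Cdk2* at 450.3 counts/kb. *Ccne1* and *Ccne2* were lower, at 119 and 188 counts/kb. Their order changed with the length, the ratio of *Ccne2* to *Ccne1* running from 0.973 to 1.57. *Ccna1* is not among the rows of the table.

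Origins are marked by the origin recognition complex and licensed by Cdc6 and Cdt1. *Cdt1* was highest of these at 675 counts/kb and *Cdc6* was at 364 counts/kb. *Gmnn*, whose product geminin inhibits Cdt1, was at 223.5 counts/kb, so that *Cdt1* was at 1.59 to 3.33 times its level. The recognition complex was unequal in its subunits. *Orc6* was at 494 and *Orc1* at 97.3 counts/kb, a ratio of 4.92 to 5.70 over the length measures. The subunits outside the 57 genes were at 282 counts/kb for *Orc2*, 72.4 for *Orc3*, 49.0 for *Orc4* and 52.1 for *Orc5*. Across the complex the highest level was 10.1 times the lowest.

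The 6 subunits of the MCM helicase, which form a ring, had closer levels than those of the recognition complex. The reason for this difference was not tested. *Mcm6* (ENSMUSG00000026355, chromosome 1 from 128259311 to 128287516, minus strand) was highest at 1509 counts/kb, rank 3 of the 57 genes. *Mcm4* followed at 1255 counts/kb. *Mcm3* was at 977, *Mcm7* at 976, *Mcm5* at 840.4 and *Mcm2* at 796 counts/kb. The ratio of the highest to the lowest was 1.90 (1.65 to 2.54 over the lengths), and all 6 were between percentile 97.4 and 98.9. *Mcm2* and *Mcm3* exchanged places with the length, at a ratio of 0.815 to 1.67. *Mcm10*, which helps to activate the helicase but is not part of the ring, was at 141 counts/kb, and *Mcm7* exceeded it by 6.91 to 8.26 times. The GINS subunits, which complete the active helicase, were at 167 counts/kb for *Gins1*, 252 for *Gins2*, 126 for *Gins3* and 177.5 for *Gins4*, with *Gins2* at 0.801 to 1.51 times *Gins1*. *Cdc45*, the other partner of the helicase, was at 359 counts/kb. The related helicase genes *Mcm8* and *Mcm9*, which act in recombination, were at 75.1 and 62.7 counts/kb.

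Behind the fork, the sliding clamp and the enzymes of nucleotide supply were among the most abundant. *Rrm2*, the regulated small subunit of ribonucleotide reductase, was at 1292 counts/kb and *Rrm1*, its large subunit, at 563 counts/kb, a ratio of 1.18 to 2.29. The small subunit *Rrm2b*, which is induced by p53, was at 45.4 counts/kb, so that *Rrm2* exceeded it by 4.35 to 28.4 times. *Pcna*, the clamp, was at 1050.5 counts/kb, and *Tyms*, thymidylate synthase, at 374 counts/kb. These 4 genes, *Rrm2b* apart, were at percentile 92.1 or above.

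**Figure D2:**
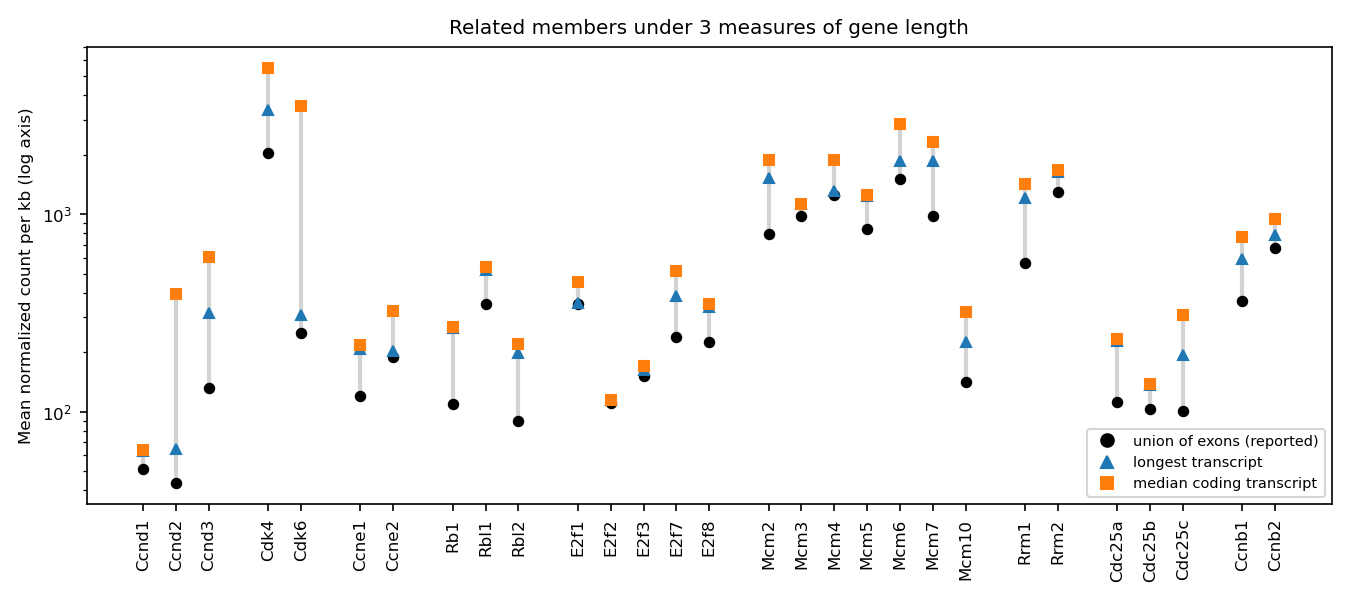
Levels of related genes as mean normalized counts per kb (log axis) under 3 lengths: the union of exons (black circles), the longest transcript (blue triangles) and the median coding transcript (orange squares). *Ccnd3* lies above *Ccnd1* and *Ccnd2* and *Rbl1* above *Rb1* and *Rbl2* in every measure, whereas *Cdk6* ranges from 249.9 to 3512.

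Entry into mitosis depends on Cdk1, its B-type cyclins, the Cdc25 phosphatases that activate it and the Wee1 kinase that inhibits it. *Cdk1* was at 664 counts/kb, 0.747 to 1.47 times *Cdk2*. *Ccnb2* was at 672 and *Ccnb1* at 362 counts/kb, with *Ccnb1* at 0.539 to 0.805 times *Ccnb2*. The regulators were lower. *Cdc25a* was at 111.9, *Cdc25b* at 103.5 and *Cdc25c* at 100.6 counts/kb. *Wee1* was at 92.3 counts/kb, and *Chek1*, the checkpoint kinase that acts on the Cdc25 proteins, at 61.2 counts/kb, the lowest of this group. *Cdc25b* was below *Cdc25a* under each length measure, at 0.591 to 0.925 times its level, and the order of *Cdc25a* and *Cdc25c* changed. *Pkmyt1*, a second inhibitory kinase of Cdk1, was at 226 counts/kb.

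The mitotic kinases and their partner were close in level, the highest at 2.14 times the lowest. *Plk1*, which acts at centrosomes and kinetochores, was at 752 counts/kb, *Aurkb* at 547 and *Aurka* at 390.1 counts/kb, with *Aurkb* at 1.28 to 2.07 times *Aurka*. *Birc5*, which encodes survivin, the partner of Aurora B in the chromosomal passenger complex, was at 351 counts/kb. The further passenger genes *Incenp* and *Cdca8* were at 357 and 302 counts/kb. With the median coding transcript *Birc5* was at 1569, *Incenp* at 434 and *Cdca8* at 1067 counts/kb.

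The spindle checkpoint holds back Cdc20 until chromosomes are attached. *Cdc20* was at 1331 counts/kb, rank 5 of the 57 genes. The checkpoint genes themselves were lower, with *Bub1b* at 456.5, *Bub1* at 383, *Mad2l1* at 183 and *Ttk* at 128 counts/kb. With the median coding transcript *Mad2l1* was at 1315 counts/kb, close to *Cdc20* at 1405 and above *Bub1b* at 578. *Bub1b* stayed within 1.12 to 1.19 times of *Bub1*. *Bub3* and *Mad1l1* from the further genes were at 122 and 194 counts/kb. *Fzr1*, the other activator of the anaphase-promoting complex, was at 338 counts/kb, below *Cdc20*.

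Of the centromere proteins, *Cenpe*, a kinetochore motor, was at 565 counts/kb, *Cenpf* at 289 and *Cenpa*, the histone H3 variant that marks centromeres, at 147 counts/kb. *Cenpf* was at 0.512 to 0.876 times *Cenpe*. The level of *Cenpa* depended strongly on the length, since its exons cover 13355 bases in the annotation and its median coding transcript 1001 bases, which gave 1957 counts/kb. *Top2a* (ENSMUSG00000020914, chromosome 11 from 98883769 to 98915062, minus strand), which untangles DNA, was the highest of the 57 genes per kb of exon, at 2246 counts/kb. *Mki67*, the gene of the proliferation antigen Ki-67, was at 987 counts/kb, and *Top2a* exceeded it by 2.28 to 3.71 times.

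A list of 59 further genes of the pathway was expressed less strongly than the 57 genes but also above most genes. The table holds 57 of them, with a median of 242 counts/kb. Of the 56 with a known length, 55 were above the median of all genes and 18 at or above percentile 90. The highest per kb of exon were *Lig1*, which joins Okazaki fragments, at 752 counts/kb and *Rbbp4*, a histone chaperone, at 729.96 counts/kb. *Foxm1* and *Mybl2*, activators of mitotic genes, were at 528 and 243 counts/kb. The MuvB core, which binds CHR elements, also holds *Rbbp4*, and its other subunits with a known length were *Lin9* at 124, *Lin37* at 97.3 and *Lin52* at 31.4 counts/kb. Its subunit *Lin54*, which contacts the CHR, had a mean of 1343 normalized counts and no length in the annotation used.

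The 57 genes lie on 17 chromosomes, with 9 on chromosome 2 and 7 on chromosome 7. The closest were *Cdc6* and *Top2a*, 69.0 kb apart on chromosome 11, and next *Cenpa* and *Tyms*, 545 kb apart on chromosome 5. Exons of other genes overlap those of 34 of the 57 genes on either strand, and those of *Mcm7* (3.06% of its exon bases) and *Top2a* (1.34%) on the same strand. The overlap on either strand was over 30% for 6 genes: *Gins2* at 67.3%, *Ccnd1* at 48.4%, *Rbl2* at 44.4%, *Rrm2* at 43.3%, *Aurka* at 38.6% and *Cdc25c* at 31.4%. How reads in overlapping exons were assigned can alter the values of these genes, and this was not tested.

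To see what the genes share beyond their function, the promoter windows of RefSeq (GRCm38.p6, 250 bases before and 50 bases after the annotated start, on the strand of the gene) were searched for 4 motifs on both strands. Windows matched 45 of the 57 genes by symbol. Those without an entry are *Aurkb*, *Ccna2*, *Ccnd1*, *Ccnd2*, *Ccne2*, *Cdc25c*, *Gins1*, *Gins2*, *Gmnn*, *Mcm4*, *Rb1* and *Wee1*. The E2F motif was searched in the forms TTCCCGC and TTCGCGC as well as TTGCCGC and TTGGCGC, the CHR as TTTGAA and TTCGAA, the CCAAT box as CCAAT and the Sp1 motif as GGGCGG. The reverse of TTCCCGC can overlap GGGCGG, and the reverse of TTGGCGC can overlap CCAAT, so a stretch of bases can count for both. The genes were divided into a replication class (28 genes, 23 with a window), a mitosis class (20 genes, 17 with a window) and others (9 genes, 5 with a window). The classes do not follow function in every gene. *Cdc25a* and *Chek1*, described above with Cdk1, and *Rbl1*, *E2f1*, *E2f2*, *E2f7* and *E2f8* were placed in the replication class. *Ccna2* was placed in the mitosis class, and *Rb1*, *Rbl2* and *E2f3* among the others. Of the genes just named in the replication class, all but *E2f1* held an E2F motif, as did *E2f3*. The E2F share of that class therefore depends on this placing. Some of the 57 genes are textbook examples of E2F or CHR promoters, so the shares describe the classes and are not independent evidence. A match of letters does not show that a factor binds, and no test was run.

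The promoters of the classes differed in which motif they held. An E2F motif was found in 16 of the 23 replication genes (69.6%) and in 3 of the 17 mitosis genes (17.6%), against 10.9% of the 27025 genes of the promoter table and 20.2% of the 9756 of them with a mean normalized count of at least 10. A CHR was found in 4 replication genes (17.4%) and in 13 mitosis genes (76.5%), against 21.7% of all genes and 16.1% of the measured ones. CCAAT was found in 69.6% of the replication and 88.2% of the mitosis genes, against 41.1% and 43.5%. The Sp1 motif was found in 82.6% and 88.2%, against 38.2% of all genes and 70.7% of the measured ones. All 13 mitosis genes with a CHR also held a CCAAT box. This pair was found in 76.5% of the mitosis and 17.4% of the replication genes, against 9.65% of all genes and 8.11% of the measured ones. The E2F motif in the mitosis class was found in *Ccnb1*, *Cdk1* and *Mki67*. *Cdk6* was the only gene of the 45 with none of the 4 motifs.

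**Figure D3:**
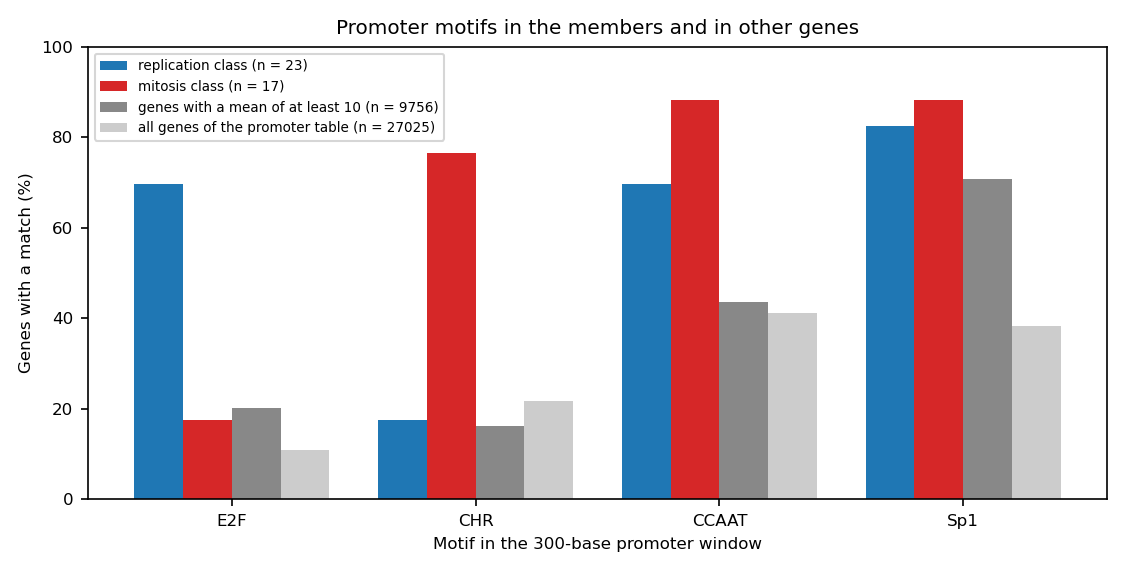
Bars give the percent of genes with at least 1 match of each motif in the 300-base promoter window, for the replication class (blue), the mitosis class (red), measured genes (dark grey) and all genes (light grey). Among the E2F bars the replication class is highest at 69.6%, and among the CHR bars the mitosis class at 76.5%.

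The bases before the start are shown for the genes of each class with the highest levels among those that hold the class motif there. In the replication class these are *Mcm6* (chr1:128359706-128359955, minus strand), *Rrm2* (chr12:24708004-24708253, plus strand) and *Mcm7* (chr5:138171884-138172133, minus strand). Capitals mark matches of the E2F motif on either strand.
Mcm6: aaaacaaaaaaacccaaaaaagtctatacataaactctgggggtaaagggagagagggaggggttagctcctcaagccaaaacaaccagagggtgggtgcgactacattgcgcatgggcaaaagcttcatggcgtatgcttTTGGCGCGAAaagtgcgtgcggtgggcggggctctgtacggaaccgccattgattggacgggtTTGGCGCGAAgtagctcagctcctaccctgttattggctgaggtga
Rrm2: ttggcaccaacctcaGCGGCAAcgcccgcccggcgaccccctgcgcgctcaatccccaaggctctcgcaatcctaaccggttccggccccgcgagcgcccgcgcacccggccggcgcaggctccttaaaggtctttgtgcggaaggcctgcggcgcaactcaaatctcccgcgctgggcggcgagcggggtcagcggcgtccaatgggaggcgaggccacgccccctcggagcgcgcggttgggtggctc
Mcm7: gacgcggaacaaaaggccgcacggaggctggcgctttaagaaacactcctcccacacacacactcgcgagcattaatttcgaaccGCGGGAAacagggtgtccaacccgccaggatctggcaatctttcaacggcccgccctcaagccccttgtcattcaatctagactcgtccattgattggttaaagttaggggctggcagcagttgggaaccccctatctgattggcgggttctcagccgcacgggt
In *Mcm6* each run of capitals is an E2F motif on both strands, overlapping, with the first bases at -109 and -46 on the strand of the gene. *Rrm2* holds its match far from the start, at -235, and *Mcm7* at -165, with further matches after the start at 17 and 20.

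In the mitosis class the genes are *Top2a* (chr11:99024190-99024439, minus strand), *Cdc20* (chr4:118437344-118437593, minus strand) and *Mki67* (chr7:135716380-135716629, minus strand). Capitals mark matches of the CHR and of CCAAT on either strand.
Top2a: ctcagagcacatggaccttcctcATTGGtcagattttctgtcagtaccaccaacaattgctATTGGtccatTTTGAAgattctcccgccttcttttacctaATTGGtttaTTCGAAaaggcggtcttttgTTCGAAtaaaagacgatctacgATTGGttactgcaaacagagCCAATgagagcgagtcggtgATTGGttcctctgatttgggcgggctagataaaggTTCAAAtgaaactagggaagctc
Cdc20: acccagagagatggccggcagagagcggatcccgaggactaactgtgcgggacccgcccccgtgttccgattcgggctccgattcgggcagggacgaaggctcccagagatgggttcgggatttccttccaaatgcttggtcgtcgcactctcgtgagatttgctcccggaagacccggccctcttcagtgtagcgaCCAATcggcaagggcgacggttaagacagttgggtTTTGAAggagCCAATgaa
Mki67: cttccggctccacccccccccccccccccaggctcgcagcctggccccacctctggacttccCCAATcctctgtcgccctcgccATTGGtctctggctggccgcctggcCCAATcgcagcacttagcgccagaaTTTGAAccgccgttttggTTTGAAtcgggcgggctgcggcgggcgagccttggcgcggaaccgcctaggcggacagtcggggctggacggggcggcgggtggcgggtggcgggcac
*Top2a* held 4 CHR matches and 6 CCAAT boxes, more than any other of the 45 genes for either motif. In *Cdc20* the CHR begins at -18, after a CCAAT box at -53 and before one at -8. *Mki67* held its CHR matches at -116 and -98, each after its CCAAT boxes.

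Most of the mitosis genes with a CHR held one near the annotated start. In 12 of the 13 a CHR began within 50 bases of the start, the exception being *Mki67*. A CHR begins there in 70.6% of the 17 mitosis genes, 8.70% of the replication genes and 6.12% of all genes of the promoter table. The width of 50 bases and the distances between motifs were chosen after the positions had been seen. The windows end 50 bases after the start, so every CHR found after the start falls within this width. Because 6 of the 13 genes hold a CHR before the start, the count depends on the bases after it. From each CHR back to the nearest CCAAT box before it, the shortest distance per gene ran from 4 to 148 bases with a median of 30 over the 13 genes. By this measure the gap was 30 bases in *Cdc20*, *Cdc25b* and *Ttk*, and 4 bases in *Top2a* and *Cdk1*. These last genes hold several CHR matches, with gaps of 5, 4, 24 and 30 bases in *Top2a* and of 4 and 28 in *Cdk1*. The shortest gap was 20 bases in *Ccnb2* and *Mki67* and 39 in *Plk1*. It was 46 in *Aurka*, 51 in *Bub1*, 68 in *Cenpf*, 97 in *Cenpa* and 148 in *Bub1b*. The gaps in promoters of other genes were not computed. E2F matches in the first windows of the replication class were spread more widely, with first bases from -235 to 43 and a median of -54.5. *Mcm5* held 3 matches at -164, -152 and -149, while *Mcm3* held its 3 matches after the start, at 19, 39 and 42.

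**Figure D4:**
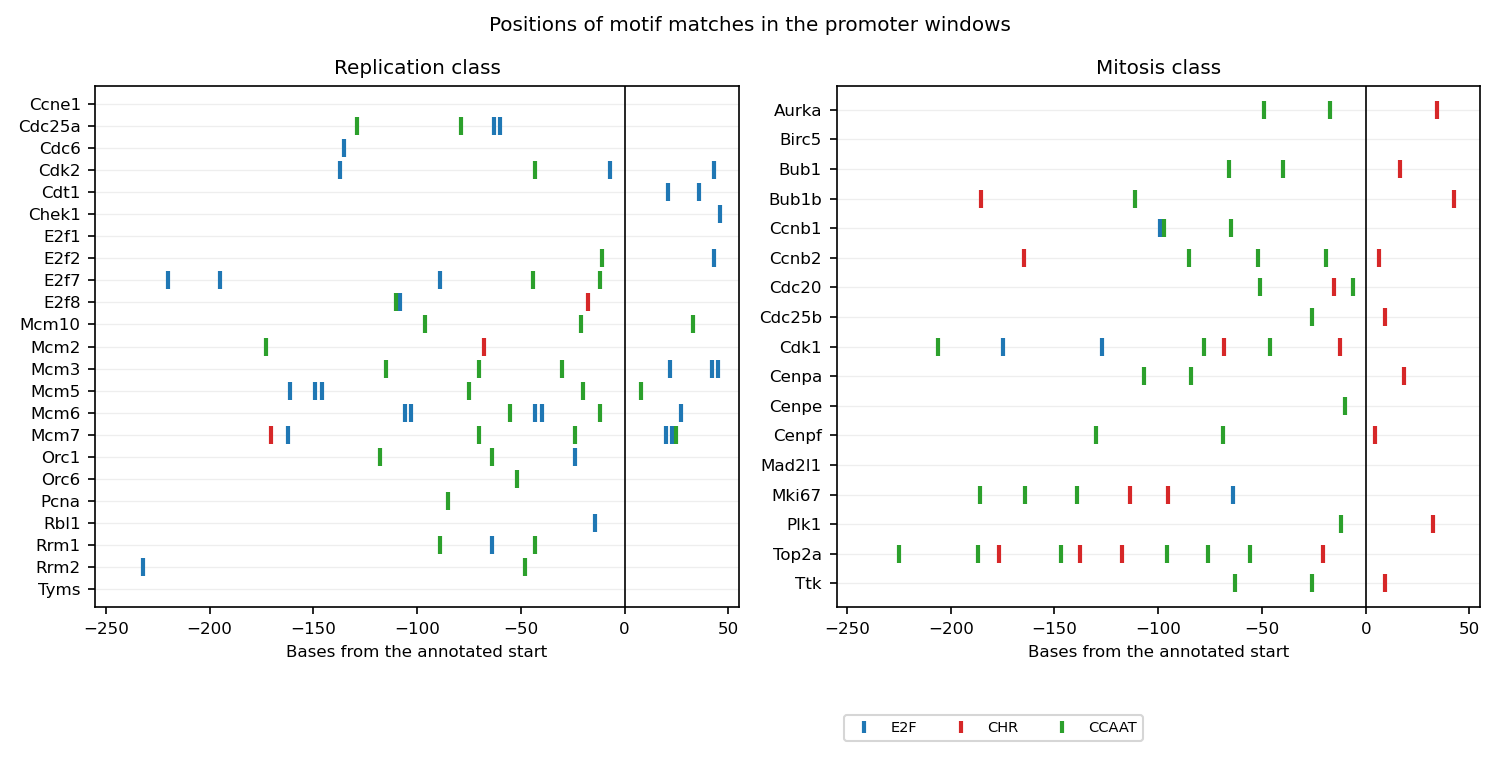
Ticks mark the middle of each match of E2F (blue), CHR (red) and CCAAT (green) against the distance in bases from the annotated start (line at 0), 1 row per gene with a first window, replication genes on the left and mitosis genes on the right. In 12 mitosis genes a red tick lies within 50 bases of the start, usually to the right of green ticks.

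*Birc5* and *Mad2l1* in the mitosis class held neither a CHR nor a CCAAT box in these windows, and *E2f1*, *Ccne1* and *Tyms* in the replication class held neither an E2F motif nor a CCAAT box. The levels of these genes were 351, 183, 350.04, 119 and 374 counts/kb in that order, within the wide range of the other genes of their classes. Whether the motifs bear on the level was not tested. The replication class had a median of 357 counts/kb and the mitosis class one of 423 counts/kb, and the levels of both classes overlapped widely, from 61.2 to 1509 and from 100.6 to 2246 counts/kb.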

How the data were processed

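RNA sequencing libraries of 3 *Pkd1*-/- and 3 wild type mDCT15 samples were made with the KAPA RNA HyperPrep Kit with RiboErase. Per the labels and the study's methods, reads were trimmed by the authors (Trim Galore 0.4.5), mapped with STAR 2.7.5a to GRCm39, counted per gene with HTSeq 0.11.0 at default parameters and normalized in DESeq2 1.22.0 (R 3.5.3). The authors deposited a mean normalized count per gene over all 6 samples, a signal in which each library's counts had been divided by its size factor. The same table holds the authors' own fold changes, standard errors, test statistics and p-values for the 2 genotypes, which were not used here. Single samples were not analysed, so no error, depth per sample or genotype test is given, and 0 columns of per-sample values were left unmatched.

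Each mean was divided by the length of the union of the gene's exons (GENCODE M39, GRCm39), found for 20122 of 20624 identifiers. This annotation is later than the Ensembl release the authors counted with. The longest transcript and the median protein-coding transcript were the alternative lengths. Ranks were percentiles among all genes with a length. Promoter windows were those of RefSeq on GRCm38.p6, matched by symbol, with no coordinate converted between builds. A gene with several windows held a motif if any window did. The motif search was checked on planted motifs. The members are the genes named for the topic, and members, lists, classes and pairs were chosen with earlier results of these data known. All members are named, and other genes come from the list of further pathway genes and of markers. Python 3.11.15, numpy 2.4.6, pandas 2.3.3 and matplotlib 3.10.9 were used.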

Additional observations from a re-analysis of the deposited data

How the results depend on the processing

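No paired analysis was possible because the result comes from no test: the values are means over all samples, and leaving out replicates, another normalization and DESeq2 against edgeR were not run for the same reason. Levels depended on the length used. No transcript is longer than the union of exons, so with the other lengths the level of any gene could only stay or rise. With the longest transcript, the median level rose by more than 1.5 times for the E and A cyclins with *Cdk2* (539.7 counts/kb), the Cdk1 module (210.1), the D-type cyclins and their kinases (309), the clamp and nucleotide genes (1423), the E2F factors (339) and the pocket proteins (264). With the median coding transcript it was 753, 274, 609, 1685, 349 and 268 counts/kb for these groups in the same order. That length also moved the genes of chromosome structure (2500.1 counts/kb), the spindle checkpoint (578), the mitotic kinases (1003), origin licensing (619) and the centromere (1957). Ranks went another way, with that length taken only among genes with a coding transcript. The median percentile fell for most groups, as from 85.2 to 71.0 for the E2F factors and from 92.3 to 83.6 for the spindle checkpoint. It rose only for the D-type cyclins and their kinases (75.3 to 84.6) and the centromere (89.1 to 96.9). The mean of the log2 levels gave 179 counts/kb for the Cdk1 module. With only the bases before the start, the CHR motif was found in 12 members (26.7%) and in 6 genes of the mitosis class (35.3%). The shares there were 19.6% of all genes of the promoter table and 14.4% of the measured ones. With a T added before the E2F forms, 1 gene of the mitosis class had a match (5.88%), against 2.6% and 4.92%. With only genes of a mean of at least 10 ranked, 23 members in place of 31 were at or above percentile 90. Among all genes of the table, 26 members were there when levels were not divided by length. The ranking by length and the comparison with measured genes were added after seeing the data.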
